A study of Mus musculus with 8 samples.

Results

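A set of 10 transcription factor genes that pattern the limb bud (Tbx2, Tbx3, Tbx4, Tbx5, Tbx15, Pitx1, Shox2, Hand2, Lhx2 and Lhx9) were followed through 4 lines of mouse embryonic fibroblasts, out of 18193 genes with a probe set of their own on the array. They were chosen by name with the group means of these same arrays known, so their levels and differences are given as a description without a test. All probe sets that the platform annotation gives to one of them alone were taken, 24 in all, and 20 of these exceeded a signal of 291.1, the median of all signals in the table, on at least 2 arrays. This level is called the cutoff here. Tbx2 had 1 probe set and did not pass it. The other 9 genes did.

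These factors tell limb mesenchyme where it lies. Tbx5 is switched on in the forelimb field and Tbx4 and Pitx1 in the hindlimb field, Hand2 sets up the posterior margin, Shox2 is needed for the proximal segment, and Lhx2 and Lhx9 carry the signal of the ridge at the tip of the bud into the mesenchyme below. Tbx2 and Tbx3 are T-box repressors, and Tbx15 shapes the limb girdles and skin. Fibroblasts keep part of such positional programmes in culture.

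The cells were fibroblasts from mouse embryos, kept dividing by large T antigen and grown in 21% oxygen, in 4 groups of 2 arrays each: wild type cells, cells without FIH (FIH null), cells without VHL (VHL null) and cells without either (VHL/FIH null, named double null in what follows). FIH, the product of Hif1an, is an asparaginyl hydroxylase that restrains transcription by the hypoxia-inducible factors, and VHL is the substrate receptor of the ubiquitin ligase that destroys their alpha subunits. The null cells came from 3 lines, named FIHdf, VHLdf and VHLdf/FIHdf by the submitters, after infection with a Cre adenovirus. Each null genotype thus had a line of its own, and genotype and line of origin cannot be told apart. The labels do not say whether the wild type cells were infected or from which part of the embryo any line was taken. They call the 2 replicates of a group biological but do not say whether these were separate cultures. A p-value thus covers only the spread between these arrays. In such bulk RNA, fewer cells with a gene on and less of its RNA per cell cannot be told apart.

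The targeted genes had their lowest signals in the lines labelled as lacking them. Whether the probes lie in the deleted exons was not examined here. The Vhl signal was 3294 ± 36.0 (SD, n = 2) on wild type arrays, 3480 ± 76.5 on FIH null arrays, 731 ± 33.2 on VHL null arrays and 979 ± 116 on double null arrays. Hif1an was 2867 ± 206 on wild type arrays, 1691 ± 21.7 on FIH null arrays, 2033 ± 170 on VHL null arrays and 1286 ± 166 on double null arrays, and VHL null cells were below wild type as well (limma adjusted p = 0.00597, with 0.564 when probe sets were averaged, 0.0530 without wild type replicate 2 and 0.0558 without VHL null replicate 1). Of 12 fibroblast markers, 9 were above the cutoff on all 8 arrays, and the 12 summed to between 385083 and 474356. Thy1, Pdgfra and Dcn were not, and such dim markers add little to this sum. In wild type, FIH null, VHL null and double null cells, Pdgfra had means of 1010, 803, 1820 and 175. Dcn read 610, 113, 1056 and 130 and Thy1 251, 174, 394 and 158 in the same order. Among the bright markers Col3a1 read 11741, 11297, 21262 and 26067. The 8 epithelial markers summed to 10575 to 10690 on wild type arrays, 11651 to 12184 on FIH null arrays, 16293 to 16670 on VHL null arrays and 40498 to 47725 on double null arrays. Krt19 made up most of this (7759, 8894, 14814 and 42622 in the same order). Krt18 went the other way (1375, 1314, 657 and 340), Epcam read 490, 795, 284 and 489, and Krt14, Cldn4 and Esrp1 were at or below the cutoff on every array. The cartilage markers summed to 3967 to 4415 on wild type arrays, 1484 to 1855 on FIH null arrays, 3021 to 3545 on VHL null arrays and 1662 to 1693 on double null arrays, with Matn1 below the cutoff throughout. Within this sum Col2a1 read 2161, 32.2, 487 and 74.5 and Acan 550, 219, 1728 and 299 in the same order, so they went opposite ways in VHL null cells. The defining muscle genes Myod1, Myf5, Myog and Myh3, the endothelial genes Pecam1, Cdh5, Tie1 and Emcn and the leukocyte genes Ptprc, Adgre1, Itgam and Fcgr3 were below the cutoff on every array. The macrophage genes Cd14 (1392 to 2597), Csf1r (539 to 864) and Cd68 (344 to 752) were above it on all 8 arrays. Among muscle and endothelial genes, Pax7 (highest array 571), Des (441), Ckm (385), Actc1 (306), Kdr (351) and Tek (318) passed it on some arrays. Pax7 had a mean of 535 in VHL null cells. The 7 neural markers summed to 8870 to 9074 on wild type arrays, 8563 to 9002 on FIH null arrays, 6009 to 6280 on VHL null arrays and 8318 to 8845 on double null arrays, and Elavl3 was below the cutoff on every array. Among them Map2 read 1719, 3172, 299 and 3450 and Sox2 539, 547, 172 and 7.35 in the same order. The part of the fibroblast, epithelial, cartilage and neural marker differences in the results on the limb genes was not tested.

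Double null cells had the highest signal of 8 of the 9 limb genes that passed the cutoff. Both double null arrays lay above the 6 other arrays for Tbx4, Tbx5, Tbx15, Pitx1, Shox2, Hand2, Lhx2 and Lhx9, a pattern shared by 16.1% of all 11564 genes tested. Tbx4 and Pitx1 passed the cutoff through the 2 double null arrays alone, so their place was fixed by the filter, and nothing is read from the count. Tbx3 was the exception and was highest in FIH null cells. Both VHL null arrays lay below the 6 others for Tbx3, Tbx4, Tbx5, Tbx15, Hand2 and Lhx9, 6 of 9 genes, against 22.0% of all genes. For Tbx4 the wild type and FIH null arrays were below the cutoff as well, so that order has no meaning, and for Hand2 and Tbx5 the VHL null arrays were below it. Forelimb and hindlimb genes were not exclusive within a line: Tbx5, Tbx4 and Pitx1 were all above the cutoff in double null cells. Whether the same cells held them cannot be told from bulk RNA.

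The promoters of 4 of the genes that were highest in double null cells are shown because the lines differ in regulators of hypoxia-inducible factors; the 4 genes share the high double null signal but do not all share the order of the other lines. Each is the stretch of 250 bases before a transcription start in RefSeq (GRCm38.p6), read 5′ to 3′ on the gene's own strand, and capitals mark the core of the hypoxia response element, ACGTG or GCGTG on either strand. The table of promoters held 6 windows for 5 of the 10 genes.
Tbx4 (chr11:85896515-85896764, plus strand, 10.4 kb inside the gene): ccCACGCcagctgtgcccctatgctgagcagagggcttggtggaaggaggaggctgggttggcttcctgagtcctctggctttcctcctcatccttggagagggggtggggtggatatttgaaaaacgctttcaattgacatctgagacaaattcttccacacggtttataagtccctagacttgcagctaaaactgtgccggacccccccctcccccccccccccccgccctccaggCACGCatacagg
Shox2 (chr3:66981772-66982021, minus strand): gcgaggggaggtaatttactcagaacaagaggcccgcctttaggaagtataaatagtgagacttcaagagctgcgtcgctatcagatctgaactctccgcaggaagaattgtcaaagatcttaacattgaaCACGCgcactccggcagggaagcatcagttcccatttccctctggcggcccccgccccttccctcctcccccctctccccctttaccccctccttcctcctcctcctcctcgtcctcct
Hand2 (chr8:57320733-57320982, plus strand): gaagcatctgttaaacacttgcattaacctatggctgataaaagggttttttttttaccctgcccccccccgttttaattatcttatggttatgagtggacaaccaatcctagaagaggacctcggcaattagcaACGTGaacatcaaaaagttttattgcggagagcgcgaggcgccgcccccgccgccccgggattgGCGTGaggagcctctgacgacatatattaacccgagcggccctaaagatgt
Lhx2 (chr2:38339031-38339280, plus strand): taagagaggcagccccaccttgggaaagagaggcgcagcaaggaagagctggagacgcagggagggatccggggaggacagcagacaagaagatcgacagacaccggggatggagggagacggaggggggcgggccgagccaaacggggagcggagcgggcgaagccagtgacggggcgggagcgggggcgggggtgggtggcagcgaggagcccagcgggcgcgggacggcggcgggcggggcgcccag

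The core occurred at 2 places in the Tbx4 window, 248 and 12 bases before the start, at 2 in the Hand2 window, 115 and 51 bases before it, and at 1 in the Shox2 window, 119 bases before it. It was not among the letters of the Lhx2 window shown or of the other Lhx2 and Lhx9 windows. Of 32851 promoters of the same length, 38.6% held the core, so a match is common. The letters of the T-box site, GGTGTGA (in 3.33% of promoters), and of the Pitx site, TAATCC (6.25%), were in none of the 6 windows. The homeodomain core TAATTA (4.84% of promoters) was in the Hand2 window, 175 bases before the start. E-boxes, CANNTG (66.2%), occurred 3 times in the Tbx4 window, at 2 places in the Hand2 window and once in the Lhx9 window. The Lhx2 window shown had 72.8% G and C, and the Shox2, Hand2 and Tbx4 windows had 55.6%, 49.2% and 58.4%, against a median of 52.4% over all promoters. A match of letters describes the window and says nothing of binding.

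**Figure D1:**
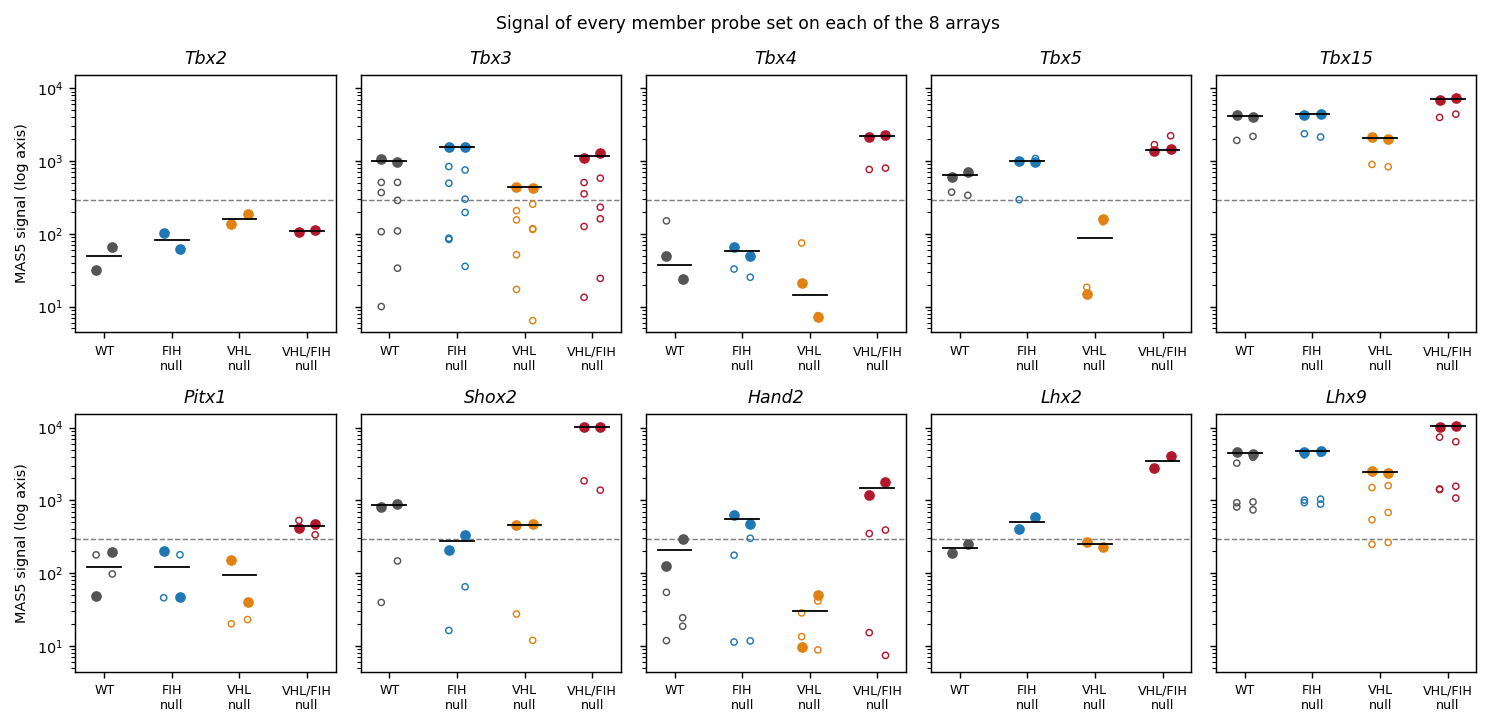
MAS5 signal (log axis) of all 24 probe sets of the 10 limb genes on each of the 8 arrays, by group. Filled points are the probe set that stands for the gene, bars its group mean, open points the gene's other probe sets, and the dashed line the cutoff of 291.1; the double null points of Tbx4, Shox2 and Lhx2 stand far above those of the other groups, and Tbx2 stays under the line.

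Tbx5, the T-box gene of the forelimb, was above the cutoff in 3 lines and below it in the VHL null line. Its signals (probe set 1425694_at) were 599.5 and 707.9 on wild type arrays, 1014 and 977.7 on FIH null arrays, 15.0 and 160.0 on VHL null arrays and 1395 and 1471 on double null arrays. The 4 groups did not overlap, and both VHL null arrays were under the cutoff. VHL null cells were thus at least 2.25-fold below wild type and double null cells at least 4.92-fold above VHL null cells. Between double null and wild type the difference was 1.12 ± 0.57 on the log2 scale (SE of the fit across all genes; all log2 values are of signal + 16), 2.19-fold. FIH null cells differed from wild type by 0.60 and double null from FIH null cells by 0.52, each close to 1 SE. The second probe set gave 295.0 and 1085 on the FIH null arrays and had the same order of group means, with 18.4 and 146.3 in VHL null and 1682 and 2229 in double null cells.

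Tbx4, the T-box gene of the hindlimb, was above the cutoff in double null cells and in no other of these 4 lines. Probe set 1456033_at read 49.7 and 23.9 on wild type arrays, 66.5 and 49.8 on FIH null arrays, 21.4 and 7.3 on VHL null arrays and 2145 and 2268 on double null arrays. The 6 arrays of the other groups were all below the cutoff, which puts double null cells at least 7.58-fold above each of them. The second probe set read 766.3 and 801.2 in double null cells and at most 150.8 on the other arrays. The order of the other 3 groups has no meaning below the cutoff, and between FIH null and wild type it turned when the probe sets were averaged (0.53 to -0.16 on the log2 scale).

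Pitx1, the homeodomain factor upstream of Tbx4 in the hindlimb, had the same pattern at a level near the cutoff. Its signals (1449488_at) were 48.7 and 193.8 on wild type arrays, 200 and 46.5 on FIH null arrays, 150.7 and 40.6 on VHL null arrays and 416.2 and 469.9 on double null arrays. The other 3 groups overlapped one another and were below the cutoff, so double null cells were at least 1.52-fold higher. The second probe set gave 530.0 and 336.5 in double null cells and at most 178.9 elsewhere.

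Tbx3, a repressor of cell cycle inhibitors, was highest in FIH null rather than double null cells. Its signals (1448029_at) were 1062 and 956.7 on wild type arrays, 1549 and 1544 on FIH null arrays, 439.6 and 428.3 on VHL null arrays and 1088 and 1276 on double null arrays. Every group was above the cutoff, VHL null cells were 2.33-fold below wild type, and FIH null cells were 1.53-fold above it. Double null and wild type cells, neighbours in this order, differed by 0.22 ± 0.15 and by -0.30 when arrays were scaled to the spiked hybridization controls. A second probe set gave the same order at 509 ± 0.495 on wild type arrays and 232 ± 33.7 on VHL null arrays. A further one did not separate the groups other than VHL null (496.7 and 196.8 in FIH null cells), and the remaining 2 were above the cutoff on at most 1 array.

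Tbx2, which lies 44.4 kb from Tbx4 on chromosome 11, was below the cutoff everywhere. Its 1 probe set read 32.3 and 65.8 on wild type arrays, 102.3 and 60.9 on FIH null arrays, 135.1 and 186.5 on VHL null arrays and 104.4 and 113.9 on double null arrays. At this brightness no order, level or fold is given.

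Tbx15 was bright in all lines. It read 4287 and 4032 on wild type arrays, 4313 and 4475 on FIH null arrays, 2158 and 1999 on VHL null arrays and 6845 and 7254 on double null arrays (1418755_at). The 2 VHL null arrays were at 2.00-fold below wild type, just short of the 2-fold rule used below, and double null cells were 1.69-fold above wild type and 3.39-fold above VHL null cells. Wild type and FIH null cells differed by 0.08 ± 0.08, a difference that took the other sign (-0.18) with the spiked controls. The second probe set agreed in order, at 868 ± 45.9 on VHL null arrays and 4202 ± 308 on double null arrays.

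Shox2 had the highest double null signal relative to wild type among the genes above the cutoff in both. It read 818.5 and 897.5 on wild type arrays, 207.4 and 339.2 on FIH null arrays, 452.9 and 472.0 on VHL null arrays and 10209 and 10249 on double null arrays (1438042_at). Double null cells were 11.9-fold above wild type (3.55 ± 0.19) and 22.1-fold above VHL null cells (4.42 ± 0.19). Each single deletion line was below wild type, by 1.63 in FIH null and 0.87 in VHL null cells on the log2 scale, with no overlap of arrays. The other probe set, which was under the cutoff on the 6 other arrays, read 1855 and 1383 in double null cells.

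Hand2, a basic helix-loop-helix factor of the posterior bud, was highest in double null cells, followed by FIH null cells. It read 9.8 and 49.8 in VHL null, 123.6 and 296.0 in wild type, 620.3 and 472.8 in FIH null and 1188 and 1782 in double null cells (1436041_at). These groups did not overlap on this probe set, but only 1 of the 4 wild type and VHL null arrays passed the cutoff. Double null cells were 2.72-fold above FIH null and at least 5.10-fold above VHL null cells. A second probe set read 350.0 and 391.4 in double null and 176.2 and 301.5 in FIH null cells, while wild type (54.4 and 24.3) and VHL null arrays (28.4 and 41.3) overlapped below the cutoff. The third never exceeded 18.6. The antisense gene Hand2os1 lies beside Hand2, and whether these probe sets also read its RNA was not examined here.

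The LIM-homeodomain pair differed in baseline. Lhx2 (1418317_at, its 1 probe set) read 189.6 and 250.2 on wild type arrays, 402.7 and 592.7 on FIH null arrays, 271.7 and 227.5 on VHL null arrays and 2783 and 4071 on double null arrays. Wild type and VHL null arrays overlapped below the cutoff, FIH null cells were at least 1.71-fold above wild type, and double null cells at least 11.8-fold above wild type and 6.89-fold above FIH null cells. Lhx9 (1419324_at) read 4560 and 4328 on wild type arrays, 4684 and 4798 on FIH null arrays, 2526 and 2359 on VHL null arrays and 10299 and 10686 on double null arrays. It was 2.36-fold higher in double null than in wild type, 4.30-fold higher in double null than in VHL null, and 1.82-fold lower in VHL null than in wild type cells. Wild type and FIH null cells differed by 0.09 ± 0.07. All 4 Lhx9 probe sets were above the cutoff on at least 6 arrays and had the same order of group means. The others differed less, with 3580 ± 462 in wild type and 6898 ± 706 in double null cells for 1429905_at. They read 941 ± 16.6 and 1242 ± 237 for 1431598_a_at, and 777 ± 50.3 and 1499 ± 89.9 for 1441313_x_at. Only 1419324_at thus put double null cells at least 2-fold above wild type or FIH null cells.

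**Figure D2:**
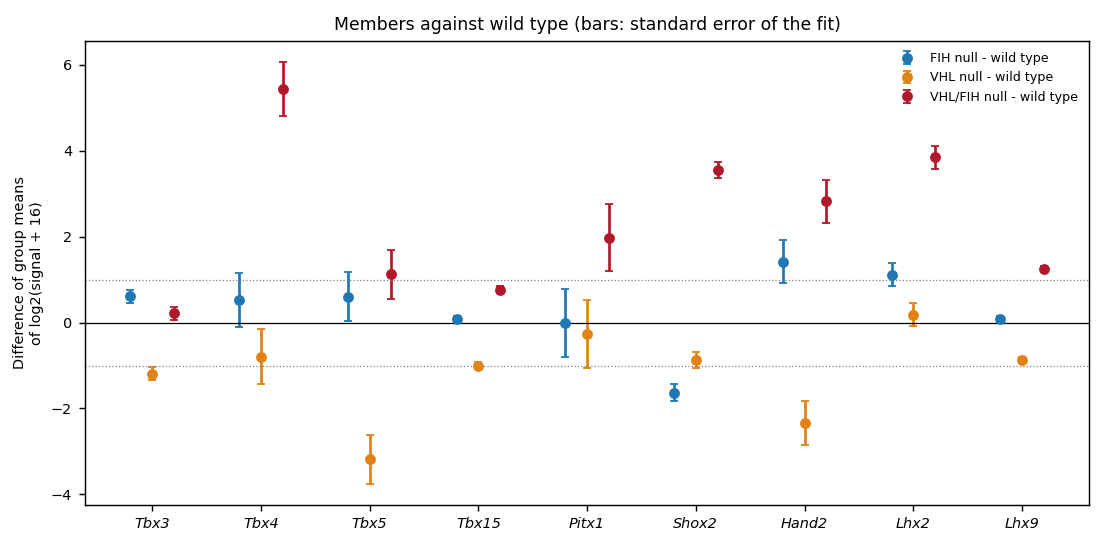
Difference of each group from wild type in log2(signal + 16) for the 9 limb genes that passed the cutoff; bars are 1 standard error of the fit across all genes, and dotted lines mark 2-fold. Double null values (red) run from 0.22 for Tbx3 to 5.44 for Tbx4, and VHL null values (orange) reach -3.18 for Tbx5; wild type Tbx4 and VHL null Tbx5 were below the cutoff, so these sizes are not exact.

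A gene was counted when group means were at least 2-fold apart, arrays of the groups did not overlap and both arrays of the higher group passed the cutoff. Because the genes were chosen with these values known, nothing is read from the counts. Signals below the cutoff entered the 2-fold rule, so some counted genes have a smaller fold above the cutoff. These were Pitx1 in double null cells (at least 1.52-fold), Lhx2 in FIH null against wild type (1.71) and Hand2 in VHL null against FIH null cells (1.88). Tbx4 and Pitx1 passed the cutoff through the double null arrays alone and could count only as higher there. Between double null and wild type 7 of the 9 were higher, all but Tbx3 and Tbx15, where 3.91% of all genes tested were. Between double null and VHL null cells all 9 were higher (3.80% of all genes). Between double null and FIH null cells 6 were higher (5.05%), namely Tbx4, Pitx1, Shox2, Hand2, Lhx2 and Lhx9. VHL null cells had 2 lower than wild type, Tbx3 and Tbx5 (3.33%), which became 5 with scaling to the spiked controls and 4 with a mean over probe sets. VHL null cells had 4 lower than FIH null cells, Tbx3, Tbx5, Tbx15 and Hand2 (3.98%). FIH null cells had 2 higher than wild type, Hand2 and Lhx2 (0.329%), and 1 lower, Shox2 (1.94%), but without wild type replicate 1 the Shox2 difference was the only one left. The median difference over the 9 genes was 1.98 for double null against wild type, where the median of all genes was -0.05, and -0.87 for VHL null against wild type, where it was -0.10. The value of 1.98 is that of Pitx1, which passed the cutoff through the double null arrays alone. Nothing is read from these medians either. These comparisons share arrays, and their values are set side by side only.

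Genes with the most similar profile were sought for each limb gene among the tested genes outside the set. They were the 3 with the smallest root mean square difference of log2 signal over the 8 arrays, after centring each gene on its mean. For Tbx4 these were Armh4 (0.48), Col10a1 (0.76), a collagen of hypertrophic cartilage, and Car9 (0.89), a carbonic anhydrase known as a hypoxia-induced gene, against a spread of Tbx4 about its own mean of 2.45. Armh4 was below the cutoff except in double null cells (1294 ± 48.2), and Car9 read from 144 ± 19.2 in wild type over 245 ± 7.50 in FIH null and 339 ± 137 in VHL null to 8026 ± 365 in double null cells. For Shox2 they were Stox2 (0.65), Rpl39l (0.74) and Sim2 (0.75), each highest in double null cells, and Rpl39l and Sim2 had means below the cutoff in the 3 other lines. For Lhx2 they were Col6a3 (0.38), Selenbp1 (0.42) and Ndn (0.45), and Ndn, the imprinted gene necdin, read 1638 ± 13.2, 1926 ± 156, 899 ± 90.1 and 15437 ± 2037 in wild type, FIH null, VHL null and double null cells. For Tbx5 the closest was another limb gene, Hoxd11 (0.50), which read 638 ± 51.9, 796 ± 17.3, 82.8 ± 42.3 and 1109 ± 85.6 in the same order, followed by Zfp979 (0.60) and Plce1 (0.63). For Hand2 they were Aspn (0.73), Zfp979 (0.81) and Fhl1 (0.82), and for Pitx1 Gsto2 (0.58), Ccdc68 (0.60) and Acta1 (0.61). Genes with a smaller span had closer partners: Tusc1 (0.08), Ano1 (0.11) and Zdhhc2 (0.13) for Tbx15, Zdhhc2 (0.10), Pqlc3 (0.10) and Gata3 (0.16) for Lhx9, and Agrn (0.14), Cenpv (0.15) and Gbp7 (0.15) for Tbx3. Within the set, Tbx15 and Lhx9 were the closest pair (0.19), and Tbx5 and Hand2 lay 0.72 apart. Likeness over 8 arrays of 4 lines describes these libraries and gives no p.

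Most neighbours of the limb genes on the chromosome stayed within 2-fold of wild type in double null cells. On GRCm38.p6, Tbx3 (chr5:119670534-119684724) and Tbx5 (chr5:119796514-119885220) lie 112 kb apart, and VHL null cells had the lowest signal of both, but Tbx3 was highest in FIH null and Tbx5 in double null cells. Tbx4 (chr11:85886367-85916097), next to Tbx2 (chr11:85832615-85841948), is flanked by Bcas3 (768 ± 2.83 in wild type and 714 ± 4.81 in double null cells) and Brip1 (1721 ± 1.98 and 1764 ± 98.1), while Tbx4 itself went from under the cutoff to 2207 ± 86.8. Of 48 neighbouring genes, up to 3 tested on each side of a limb gene, 3 were at least 2-fold higher and 2 at least 2-fold lower in double null than in wild type cells, with a median difference of -0.01. The 3 higher ones, Hpgd, Sap30 and 2500002B13Rik, lie 1000, 158 and 163 kb from Hand2, and the 2 lower ones were Spring1, 1407 kb from Tbx3, and Tgfbi, 773 kb from Pitx1. Of all genes tested, 4.23% were at least 2-fold higher and 3.69% at least 2-fold lower by the same rule. This description was chosen after the values had been seen and has no test.

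Other genes of the limb programme, 156 on 10 lists of which 102 passed the cutoff, were tested across all 11564 genes with limma and Benjamini-Hochberg adjustment at 0.05. In double null against wild type cells 24 rose and 31 fell, 55 of 102, where 17.8% of all genes rose and 23.6% fell. VHL null cells had 19 higher and 34 lower (15.5% and 28.4% of all genes), and FIH null cells 9 higher and 20 lower (1.96% and 4.59%). Scaling to the spiked controls brought the median difference of all genes from wild type to -0.57 for double null, -0.48 for VHL null and -0.26 for FIH null cells. It turned these splits into 13 and 68, 10 and 59, and 5 and 55, so directions are relative to the bulk of the array signal. Counts in parentheses after a list's counts are those with the spiked controls. The shares of all genes under that scaling are not given here, so nothing about the limb genes is read from those counts. Between double null and FIH null cells 37 rose and 31 fell (20.6% and 25.0% of all genes), which became 25 and 44 with the spiked controls, and between double null and VHL null cells 31 rose and 26 fell (22.3% and 15.4%). The interaction was the difference of double null from VHL null cells minus that of FIH null from wild type cells. As each null genotype had its own line, it contrasts lines as well as genotypes. It was above 0 for 30 and below 0 for 15 of the 102 (13.4% and 8.47% of all genes). Leaving out 1 array at a time gave 17 to 32 genes for FIH null against wild type, and 17 were left without wild type replicate 1 or FIH null replicate 1, 19 without wild type replicate 2 or FIH null replicate 2. The median difference between double null and wild type cells was -4.20 for the 7 position genes, 1.21 for the 8 segment Hox genes, -0.43 for the 13 proximal genes, -0.05 for the 15 mesenchyme factors, -0.32 for the 10 hedgehog genes, -0.06 for the 15 FGF genes, 0.25 for the 16 BMP genes, 0.72 for the 4 other T-box genes, -0.33 for the 9 LIM genes and 0.66 for the 5 genes repressed by Tbx2 or Tbx3, where it was -0.05 over all genes. The position and segment Hox genes lay farthest from 0 among these lists.

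In double null cells the Hox genes listed for position along the trunk fell and those listed for the limb segments rose. The measured position genes were Hoxb5 and HoxC genes, and the measured segment genes were all HoxA or HoxD genes. List and Hox cluster thus cannot be told apart here. All 7 measured position genes fell in double null cells, with either scaling. Hoxc8 went from 12838 ± 1814 in wild type to 124 ± 101 (at least 44.1-fold; adjusted p = 1.09e-07), Hoxc4 from 5675 ± 730 to 63.2 ± 25.3 (at least 19.5-fold; 4.58e-08), and Hoxc6 from 6022 ± 129 to 432 ± 124 (1.11e-08). In FIH null cells 5 of the 7 fell, led by Hoxc10, a hindlimb-level gene (1210 ± 188 to 74.4 ± 36.5, at least 4.16-fold; adjusted p = 9.22e-06) and Hoxc4 (to 380 ± 195; 1.05e-05). The 1 gene that passed in VHL null cells, Hoxc4 at 10343 ± 259, had an adjusted p of 0.0337, and the call ended without any single wild type or VHL null array (0.0732 to 0.162). All 8 genes on the segment list rose in double null cells (7 with the spiked controls), such as Hoxd9 (918 ± 193 to 4108 ± 241; 1.07e-06) and Hoxa11 (1755 ± 95.1 to 4841 ± 626; 1.89e-06). The list also holds Hoxd8 (1301 ± 41.1 to 6422 ± 1023; 3.20e-07), and whether Hoxd8 patterns a limb segment was not examined here. In VHL null cells, 2 genes of the segment list were higher than in wild type and 4 lower (6 lower with the spiked controls). Hoxd13, the gene of the digits, fell from 6615 ± 557 to 111 ± 11.6, at least 22.7-fold (2.39e-11), and Hoxd11 from 638 ± 51.9 to 82.8 ± 42.3 (2.89e-05), while both read highest in double null cells (12971 ± 35.4 and 1109 ± 85.6).

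The proximal programme, set by retinoic acid and the Meis and Pbx factors, had 4 of 13 measured genes fall in double null cells (12 with the spiked controls). Among them Meis1 went from 1389 ± 1.13 to 839 ± 107 (0.00135) and Rarg, a retinoic acid receptor, from 6780 ± 56.1 to 4460 ± 146 (2.22e-05). VHL null cells had lower Meis1 (638 ± 22.8; 9.03e-05) and lower Crabp2, which carries retinoic acid into the nucleus (7417 ± 464 to 2407 ± 169; 9.25e-08), but higher Rdh10, which makes its precursor (2992 ± 101 to 4995 ± 39.7; 3.18e-05). In all, 1 of the 13 rose and 6 fell there. In FIH null cells 4 rose (2, with 5 falling, under the spiked controls), Crabp2 the first by p (12156 ± 558; 1.69e-04). Rarg was 9045 ± 23.8 in FIH null cells (0.00218, and 0.107 with the spiked controls).

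Of 15 other transcription factors of limb mesenchyme, 3 rose and 5 fell in double null cells (1 and 12 with the spiked controls). Alx1 fell from 1624 ± 89.3 to 59.5 ± 9.40 (at least 5.58-fold; adjusted p = 1.90e-07) and Pax9 from 1264 ± 145 to 348 ± 146 (1.46e-04). Prrx1, the common marker of limb mesenchyme, went from 16520 ± 610 to 22731 ± 1652 (3.18e-04), a rise that turned to -0.06 with the spiked controls, and Msx2 from 1351 ± 90.8 to 2689 ± 82.0 (5.34e-04). Of the same 15, 3 rose and 6 fell in VHL null cells (2 and 9). There Alx1 fell to 41.0 ± 8.91 (1.87e-07), Prrx1 to 12036 ± 786 (3.56e-04) and Prrx2 from 11347 ± 680 to 7198 ± 651 (5.34e-05), and Osr1 rose from 10360 ± 107 to 16148 ± 228 (1.16e-05). In FIH null cells 2 rose and 5 fell (2 and 9), and Osr2 went from 910 ± 14.1 to 186 ± 28.8 (at least 3.12-fold; 5.77e-05), Pax9 to 370 ± 2.47 (0.00171) and Prrx1 to 24479 ± 556 (4.19e-04).

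Genes of the hedgehog, FGF and BMP pathways, whose signals the limb genes answer to, were tested next. Of 10 measured hedgehog pathway genes, 5 fell in double null cells (9 with the spiked controls), including the co-receptors Cdon (5882 ± 139 to 3408 ± 257; 3.09e-05) and Gas1 (29363 ± 4709 to 18982 ± 1236; 0.00216) and Disp1, which releases the ligand (3041 ± 133 to 1981 ± 60.8; 2.75e-04). In VHL null cells 5 fell (8), among them Smo, the signal transducer (8804 ± 158 to 6269 ± 373; 1.49e-04), and Gli3, the repressor that opposes Hand2 in the bud (7205 ± 138 to 5515 ± 315; 8.45e-04). Of 15 FGF pathway genes 2 rose and 4 fell in double null cells (0 and 10 with the spiked controls), with Spry1, a feedback inhibitor, at 3335 ± 3.82 and 525 ± 177 (1.16e-06), and Il17rd at 1882 ± 78.3 and 744 ± 13.5 (4.77e-06). Spry1 was also low in FIH null cells (734 ± 69.8; 3.69e-05). The ligand Fgf7 read 7091 ± 918 in wild type, 4031 ± 491 in FIH null (0.00126) and 15847 ± 653 in VHL null cells (1.97e-05). In double null cells it read 11051 ± 1485 (9.90e-04, and 0.404 with the spiked controls). Of these genes 5 rose and 3 fell in VHL null cells (2 and 7), and the receptor Fgfr2 went from 2657 ± 315 to 1227 ± 204 (7.50e-05).

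Of 16 BMP pathway genes 6 rose and 1 fell in double null cells (2 and 8 with the spiked controls). The ligand Bmp4 had the order of Tbx15 and Lhx9 at its ends, with 3375 ± 246 in VHL null, 6788 ± 1157 in wild type and 11841 ± 760 in double null cells (adjusted p = 3.35e-05 for VHL null and 1.11e-04 for double null against wild type, and 3.31e-07 between them). Id2, a target of BMP signals, was 23388 ± 1411 in wild type, 39433 ± 2644 in VHL null cells (9.77e-06) and 40251 ± 1873 in double null cells (4.58e-06). Of the 16, 5 rose and 3 fell in VHL null cells (3 and 10). The antagonist Grem1 went from 1232 ± 380 in wild type to 4744 ± 367 in VHL null cells (1.69e-05). In FIH null cells 3 fell (9), including the antagonist Fst (1311 ± 263 to 522 ± 68.2; 8.08e-04).

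**Figure D3:**
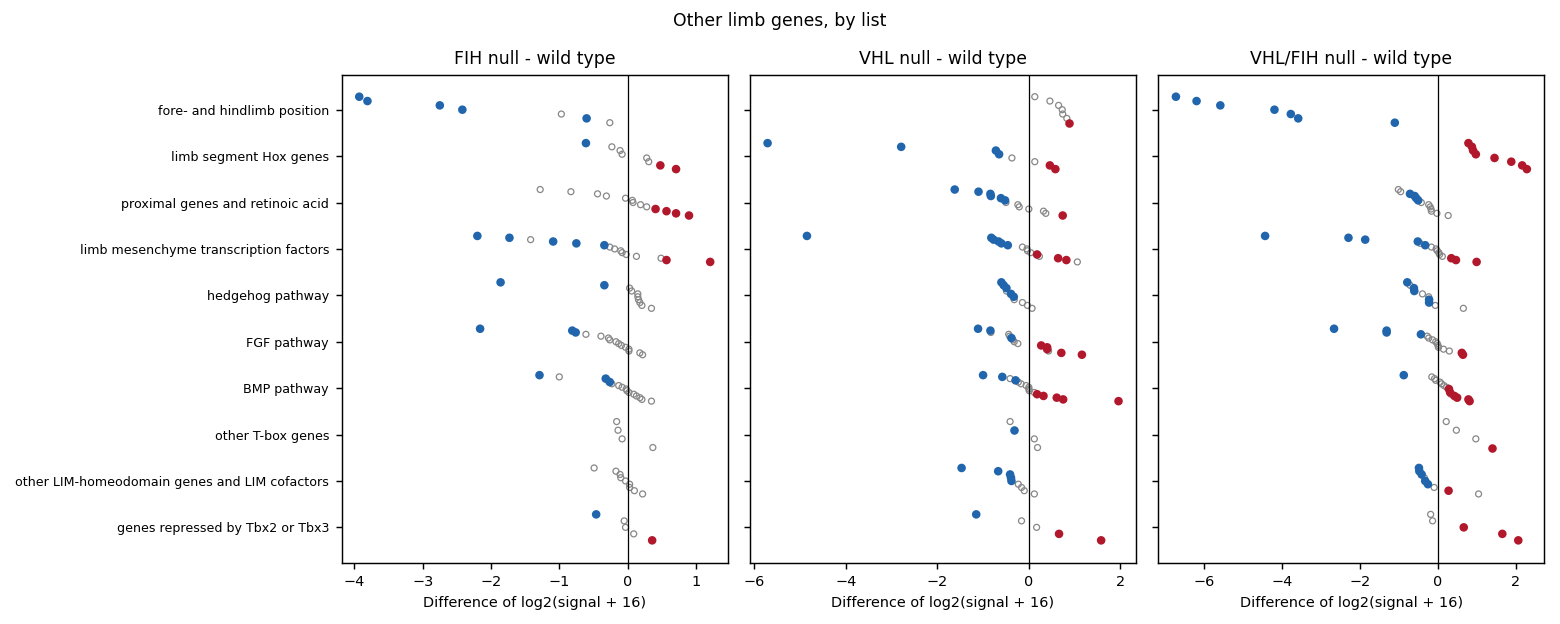
Difference from wild type in log2(signal + 16) of the 102 other limb genes tested, one row per list, in FIH null, VHL null and double null cells; red and blue points passed limma's test at an adjusted p under 0.05 as higher and lower, open points did not, and the small vertical offset only separates points. Position genes lie to the left and segment Hox genes to the right of 0 in double null cells.

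Partners and targets of the listed factors were also tested. Of 13 other T-box genes, 4 passed the cutoff. Tbx18, which is active in the proximal limb bud and in epicardium, read 2663 ± 26.7 on wild type arrays, 2380 ± 82.5 on FIH null arrays, 2119 ± 9.55 on VHL null arrays and 7004 ± 54.0 on double null arrays. It rose by 1.39 in double null against wild type (adjusted p = 1.31e-07) and by 1.72 against VHL null cells (4.01e-08), and fell by 0.33 in VHL null against wild type cells (0.00521, and 0.0770 with quantile normalization). Tbx20 passed between double null and VHL null cells (636 ± 0.849 and 258 ± 156; 0.0149), a call that ended without VHL null replicate 1 (0.108) or either double null array (0.0605 and 0.0609). Of 9 other LIM-homeodomain genes and LIM cofactors, 1 rose and 5 fell in double null cells (0 and 7 with the spiked controls). Ldb1, the cofactor through which Lhx2 and Lhx9 act, went from 5807 ± 30.3 to 4164 ± 664 (0.00310), and to 4452 ± 310 in VHL null cells (0.0114, with 0.0502 without wild type replicate 2 and 0.0914 without VHL null replicate 2). Lmo4, which competes for Ldb1, was 5821 ± 115 in wild type, 3657 ± 33.4 in VHL null cells (1.61e-05) and 7018 ± 96.4 in double null cells (0.00564), and the last difference turned to -0.25 with the spiked controls.

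Of 5 genes known to be repressed by Tbx2 or Tbx3, 3 rose in double null cells (2, with 2 falling, under the spiked controls), where Tbx3 itself differed from wild type by 0.22 ± 0.15 (-0.30 with the spiked controls). Cdkn1a, the cell cycle inhibitor p21, was 5709 ± 964 in wild type, 8962 ± 312 in VHL null cells (5.00e-04) and 23753 ± 2360 in double null cells (7.12e-08). Ndrg1 was 7466 ± 351, 22291 ± 371 (1.22e-08) and 23471 ± 587 (4.62e-09) in the same lines, and it is also known as a hypoxia-induced gene. Gja1 was 50652 ± 4214 in wild type and 79799 ± 7248 in double null cells (9.20e-05, and 0.122 with the spiked controls). In VHL null cells, where Tbx3 was lowest, 2 of the 5 rose and 1 fell (2 and 3 with the spiked controls), and the one that fell, Cdkn2b, went from 12348 ± 944 to 5569 ± 452 (8.87e-07).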

How the data were processed

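RNA of 8 samples was hybridized to Affymetrix Mouse Genome arrays, 2 per group. The authors deposited intensity values per probe set on a linear scale, MAS5 signals (per the submitters' processing notes, its version not given in the sources used here). The table holds 45101 probe sets, 64 of them controls; the trimmed mean was 2500.01 on each array and medians ran from 281.5 to 307.1, so values were used as deposited. Precision is limited by the number of arrays. Of the other probe sets 34945 had 1 gene symbol, 932 several and 9160 none in the platform annotation.

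Signals were turned to log2 after adding 16. Probe sets above 291.1 on at least 2 arrays were tested (24523), and for each of 11564 genes the brightest tested probe set on average was used. A limma model (version 3.58.1, R 4.3.3) estimated the group means (variance trend, prior degrees of freedom 7.04, residual 4), two-sided, adjusted by Benjamini-Hochberg over the genes of each comparison; the fit was tested on simulated data. "At least" folds divide the higher group's mean signal by the cutoff where the other group is at or below it on both arrays. Named genes are the 10 limb genes, Hif1an, Vhl, up to 4 genes per list and comparison with the smallest p, the 3 nearest profiles and markers. The limb genes and the lists were chosen with earlier results of these data known. Replicates of the same number did not deviate together (r from 0.00869 to 0.0393 over 6 pairs of groups), so no pairing was used. Alternatives were pseudocounts of 1 and 64, dropping the filter or raising it to the 75th percentile, quantile normalization, median centring, scaling to 18 spiked control probe sets, averaging a gene's probe sets, omitting _s_at and _x_at probe sets, the replicate block, no variance trend, only the compared groups, and leaving out each array.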

Additional observations from a re-analysis of the deposited data

Results flagged for a closer look

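For several limb genes every VHL null array was below the wild type arrays and every double null array above the FIH null arrays. On the log2 scale the VHL null minus wild type and the double null minus FIH null differences were -0.79 and 4.91 for Tbx4, -3.18 and 0.52 for Tbx5, -1.0 and 0.68 for Tbx15, -0.87 and 5.18 for Shox2, -2.34 and 1.40 for Hand2, and -0.86 and 1.14 for Lhx9. Shox2 also fell by 1.63 with FIH deletion when VHL was intact, and was 4.42 higher with it in VHL null cells. These differences between differences were not tested, since the genes were chosen with these values known, and sizes are not exact where a group was dim: Tbx4 outside double null cells, Tbx5 and Hand2 in VHL null cells, 1 Hand2 array in wild type cells and 1 Shox2 array in FIH null cells were below the cutoff. The Tbx4 difference of -0.79 and the Tbx5 difference of 0.52 were close to 1 SE.

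For some of the other limb genes named, the interaction passed limma's test (adjusted p from 6.53e-10 for Hoxd13 to 0.0255 for Prrx1). It was above 0 on the log2 scale, at 5.97 for Hoxd13, 3.26 for Hoxd11, 3.04 for Osr2, 2.31 for Hoxd8, 2.10 for Bmp4, 2.02 for Fst, 1.96 for Hoxc10, 1.93 for Hoxd9, 1.88 for Tbx18, 1.68 for Hoxa11, 1.46 for Cdkn1a, 1.09 for Msx2, 0.96 for Lmo4, 0.90 for Fgfr2, 0.88 for Crabp2, 0.87 for Prrx2, 0.60 for Cdkn2b, 0.53 for Ndrg1, 0.52 for Gja1 and 0.35 for Prrx1. It was below 0, at -6.93 for Hoxc8, -3.31 for Hoxc6, -3.14 for Hoxc4, -1.86 for Grem1, -1.07 for Cdon, -0.99 for Rdh10, -0.66 for Il17rd and -0.41 for Rarg. Sizes are not exact for Hoxc4 and Hoxc8, which were below the cutoff in double null cells, Hoxd13 and Hoxd11, below it in VHL null cells, and Hoxc10 and Osr2, below it in FIH null cells. The interaction did not pass for Meis1 (adjusted p = 0.518), Alx1 (0.141), Pax9 (0.851), Osr1 (0.119), Disp1 (0.382), Gas1 (0.114), Smo (0.143), Gli3 (0.976), Spry1 (0.837), Fgf7 (0.230), Id2 (0.673), Ldb1 (0.981) and Tbx20 (0.0659).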

How the results depend on the processing

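The filter at the 75th percentile of signals moved the counts of limb genes at least 2-fold apart and left 4 of the 9 genes: 0 for FIH null and 0 for VHL null against wild type, 3 for double null against wild type, 3 against FIH null and 4 against VHL null cells, and 1 between VHL null and FIH null cells. Of these 4 genes, Shox2 and Lhx2 passed this filter through the double null arrays alone, so their place was fixed by it. The shares of all genes under this filter are not given here, and nothing is read from these counts. For VHL null against wild type, scaling to the spiked controls gave 5 and the mean of probe sets 4. Leaving out 1 array gave 1 to 3 genes for FIH null against wild type. Of the recomputed differences of single limb genes 842 moved by less than the spread between replicates and 100 by more; those that met the 2-fold rule kept their sign under each alternative in which the gene was tested. Of the other limb genes, 60 passed in FIH null against wild type cells with the spiked controls, 18 without a variance trend and 17 to 32 without 1 array. The shares of all genes under these alternatives are not given here. With the spiked controls the double null minus wild type difference reversed to -0.06 for Prrx1 and -0.25 for Lmo4. For Hif1an in VHL null against wild type cells it was -0.21 on averaging probe sets (adjusted p = 0.564) and -0.58 to -0.41 without 1 array.

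With the replicate block, 30, 54 and 55 of the 102 other limb genes passed in FIH null, VHL null and double null against wild type cells, 69 and 57 in double null against FIH null and VHL null, 75 between VHL null and FIH null (72 without the block), and 47 for the interaction. The shares of all genes with the block are not given here, so these counts only show how the block moved the main counts. The block changed no call given in the text. Signals near the cutoff limit Pitx1, Hand2 and the dim groups of Tbx4, Tbx5 and Lhx2.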
